A study of Mus musculus with 48 samples.

Results

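The 9 genes described here encode the enzymes that write and remove DNA methylation and their closest cofactors: Dnmt1, Uhrf1, Dnmt3a, Dnmt3b, Dnmt3l, Tet1, Tet2, Tet3 and Tdg. They were picked by symbol, and all 9 were found among the 20171 genes of the count table and passed the filter on low counts in each of the 11 comparisons. Tet3, held at 0.417 RPKM in the lysate of HA-Tnrc6a cells, was enriched over untagged cells with the silencing protein Tnrc6a more strongly than the other 8. Tet2 and Dnmt1 were enriched too, whereas Uhrf1 was lower than in untagged precipitates. In HA-Tnrc6a cells Dnmt3l was lower relative to its lysate level, which was higher than in untagged cells, and its level in the precipitates alone did not pass the test. In Ago2-/- cells the recovery of Tet2 was higher, and that of Tet3 did not pass the test. Tet1 was held by the beads in cells with no tag at all.

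Cytosine methylation at CpG sites is kept through cell division by Dnmt1, which Uhrf1 brings to newly copied DNA. Dnmt3a and Dnmt3b set new methylation, and Dnmt3l, which has no catalytic activity of its own, stimulates them and is abundant in embryonic stem cells and germ cells. Tet1, Tet2 and Tet3 oxidise methylcytosine, and Tdg, a DNA glycosylase, cuts out the most oxidised forms so that base excision repair restores a plain cytosine. Tnrc6a is a mouse GW182 protein. It sits on Argonaute proteins such as Ago2, which carry microRNAs, and calls in the deadenylases that shorten the mRNA tail. Upf1, an RNA helicase, is needed for the decay of mRNAs with early stop codons.

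All libraries came from embryonic stem cells of the mouse strain 129S6/SvEvTac. All groups share the GFP_5xT71BS reporter, and the growth description of the cells includes a stably transfected FLAG-Cas9. The 4 genotypes were untagged cells, cells with HA-AVI-Tnrc6a, and tagged cells that were in addition Ago2-/- or labelled Upf1-/-. From each genotype RNA was sequenced from the lysate (input) and from what magnetic anti-HA beads held (immunoprecipitate, IP), with 6 libraries per genotype and fraction and 48 in all. The libraries come from 2 experiments, numbers 3 and 4 in the labels. The count columns number the libraries of a group from 1 to 6 and do not name the experiment, so libraries 1 to 3 and 4 to 6 are treated as separate sets and shown apart. Cells were grown in triplicate dishes. The labels do not say whether a genotype is 1 clone, so a difference between genotypes cannot be told apart from a difference between clones, and p-values measure the spread between these libraries.

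Total counts per library were 15383953 to 19595405 (inputs) and 11471544 to 18344233 (IPs) in libraries 1 to 3, and 26458831 to 37179105 and 25724085 to 73845953 in libraries 4 to 6. In the Ago2-/- inputs Ago2 mRNA changed by -1.21 ± 0.03 (SE, adjusted p = 6.3e-34) on the log2 scale, but Upf1 mRNA in the inputs labelled Upf1-/- was higher, by 0.58 ± 0.03 (SE, adjusted p = 1.2e-22). The name Upf1-/- is used here as a label, and each direction given for these cells rests on it. Tnrc6a mRNA itself was enriched by 7.77 ± 0.18 (SE, adjusted p = 3.3e-18) in HA-Tnrc6a IPs over untagged. All 8 embryonic stem cell markers were high in every input, with means of 464 to 1479 CPM (library-scaled counts, with TMM factors). Against HA-Tnrc6a, 5 of these 8 were higher and 1 lower in Ago2-/- inputs (edgeR, adjusted p under 0.05), where 30.9% of all genes passed. In inputs labelled Upf1-/- 3 of them were higher and 5 lower, where 58.6% of all genes passed. The 2 trophoblast markers in the table summed to at most 3.16 CPM, the 2 markers of the 2-cell-like state to at most 1.44 CPM and the 3 fibroblast markers to 20.5 to 36.7 CPM, most of it Thy1. The 10 markers of primed or early germ layer cells summed to 68.2 to 80.4 CPM in HA-Tnrc6a inputs, 53.6 to 67.0 in Ago2-/-, 40.3 to 92.4 in those labelled Upf1-/- and 59.4 to 87.1 in untagged cells. Of these 10 markers 3 were higher, 5 lower and 2 not past the test in Ago2-/- inputs (edgeR, adjusted p under 0.05), where 30.9% of all genes passed. The endoderm genes Gata6, Sox17, Foxa2 and Gata4 were lower there, by -3.23, -2.98, -2.79 and -1.22 (log2). Foxa2 averaged only 0.371 CPM over the 24 inputs, so its value rests on very few reads. The part of these markers in the differences between genotypes below was not tested.

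In this bulk RNA, fewer cells with a transcript and fewer transcripts per cell cannot be told apart. Per gene length, Dnmt3l and Uhrf1 had the highest lysate levels, at 72.4 ± 17.3 and 67.4 ± 9.94 RPKM (CPM divided by gene length in kilobases, SD over 24 inputs). Their order changed with the set: Dnmt3l was above Uhrf1 in 12 of 24 inputs, with set means of 84.4 against 58.0 RPKM in libraries 1 to 3 and 60.5 against 76.7 in libraries 4 to 6. Dnmt1 followed at 32.3 ± 5.33 and Dnmt3b at 21.4 ± 2.68 RPKM, each above the next gene in 24 of 24 inputs. Tet2 at 13.6 ± 3.11 and Tdg at 10.7 ± 1.19 RPKM overlapped, with Tet2 higher in 18 of 24. Dnmt3a at 8.24 ± 1.36 and Tet1 at 7.62 ± 2.94 RPKM overlapped too, with Dnmt3a higher in 16 of 24. Tet3 stood far below at 0.434 ± 0.099 RPKM and was the lowest in every input. The plot of lysate levels shows that for 7 of the 9 genes libraries 4 to 6 had the higher mean, and that Dnmt3l and Tdg went the other way.

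**Figure D1:**
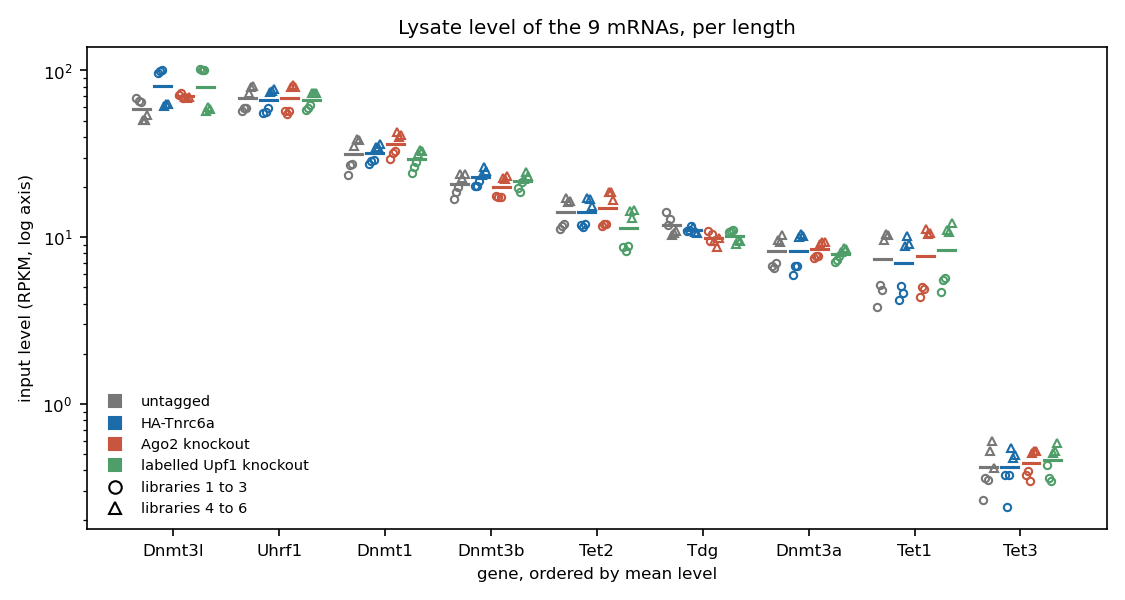
Level of each of the 9 mRNAs in the 24 input libraries, in RPKM on a log axis. Each point is 1 library, colours give the genotype, circles are libraries 1 to 3, triangles libraries 4 to 6, and bars are means of 6. Dnmt3l and Uhrf1 lie highest and Tet3, with a mean of 0.434 RPKM, lies lowest.

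Recovery of an mRNA is its log2 ratio of IP to input, and enrichment is that ratio in tagged cells less that in untagged cells. A change is called at an adjusted p under 0.05 in edgeR's quasi-likelihood test over all genes. In HA-Tnrc6a cells 8 of the 9 genes passed, 3 higher and 5 lower than untagged, and 62% of all tested genes passed that test, so the count of calls does not set the 9 apart. In Ago2-/- cells 3 were higher and 5 lower, where 64.7% of all genes passed, and in cells labelled Upf1-/- 3 were higher and 3 lower, where 63.6% passed. The lower count there became 6, with Dnmt3a, Dnmt3b and Tdg added, under RLE size factors, library totals, DESeq2 and the fit of all 48 libraries, and without replicate 1 or 3. These comparisons share the untagged libraries. The 3 higher genes were Dnmt1, Tet2 and Tet3 in all 3 tagged genotypes. Over all genes the median enrichment was -0.10 in HA-Tnrc6a, -0.07 in Ago2-/- and -0.06 in cells labelled Upf1-/- (log2), and scaling by library totals moved these medians to -0.25, -0.22 and -0.32. Small negative values, such as those of Dnmt3a and Dnmt3b, lie near this shift.

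**Figure D2:**
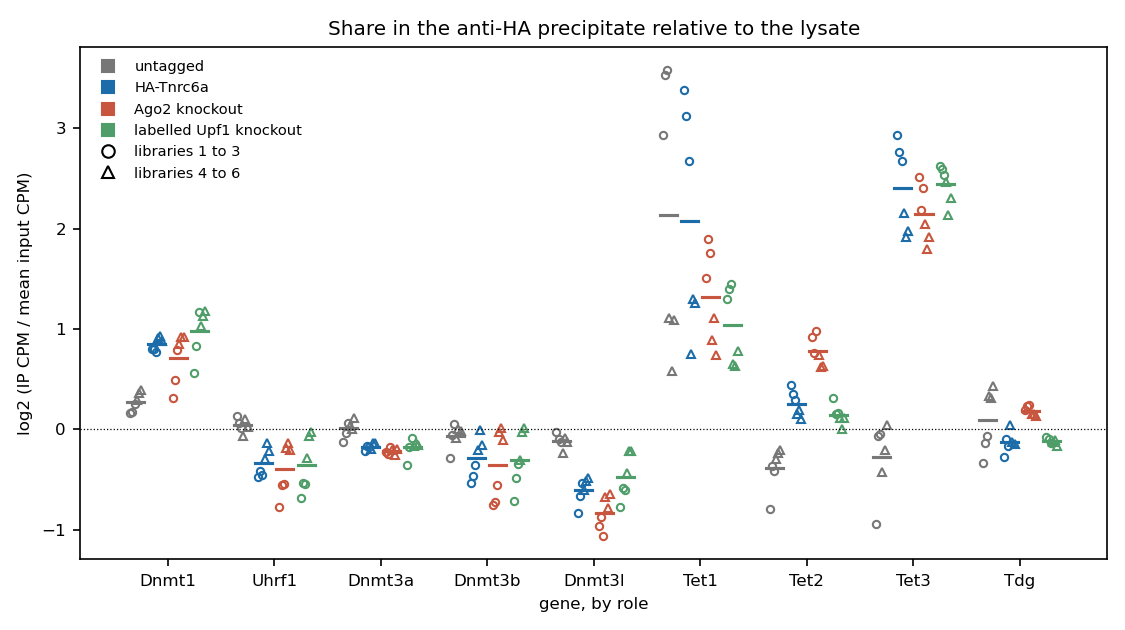
Log2 of each IP library's CPM over the mean input CPM of its genotype and set, for the 9 mRNAs. Each point is 1 IP library, circles are libraries 1 to 3, triangles libraries 4 to 6, and bars are means of 6. Tet3 lies near -0.27 ± 0.37 (SD) in untagged cells and at 1.80 or above in every tagged library, while Tet1 reaches as high in untagged as in HA-Tnrc6a cells.

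Dnmt1, the maintenance methyltransferase (chr9:20907206-20959888 of GRCm38.p6, RefSeq), was recovered with Tnrc6a in all 3 tagged genotypes. Untagged IPs held 215, 216 and 229 CPM in libraries 1, 2 and 3, and 338, 354 and 362 CPM in libraries 4, 5 and 6. HA-Tnrc6a IPs held 366, 366 and 357, then 488, 493 and 478 CPM. In the Ago2-/- IPs it stood at 287, 325 and 402, then 548, 577 and 575 CPM, and in those labelled Upf1-/- at 286, 344 and 435, then 491, 527 and 543 CPM. Within each set every tagged IP was above every untagged one. Among libraries 1 to 3 the Ago2-/- IPs and those labelled Upf1-/- spread widely, and both ranges take in the HA-Tnrc6a values. The enrichment was 0.59 ± 0.06 (SE, adjusted p = 5.7e-10) in HA-Tnrc6a, 0.46 ± 0.08 (SE, adjusted p = 2.7e-06) in Ago2-/- and 0.80 ± 0.09 (SE, adjusted p = 8.1e-09) in cells labelled Upf1-/-, on the log2 scale. In untagged cells the log2 IP over input of Dnmt1 was 0.27 ± 0.05 (SE, adjusted p = 0.00018). That call was lost under library totals (0.09, adjusted p = 0.12) and in libraries 1 to 3 alone (0.19, adjusted p = 0.17).

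Neither knockout changed Dnmt1 recovery past the test against HA-Tnrc6a, at -0.13 ± 0.08 (SE, adjusted p = 0.23) for Ago2-/- and 0.20 ± 0.09 (SE, adjusted p = 0.24) for the label Upf1-/-. Its level in the lysate passed the test in both in the main fit. HA-Tnrc6a inputs held 202, 212 and 215 CPM, then 255, 255 and 267. Ago2-/- inputs held 218, 235 and 243, then 316, 293 and 305 CPM, above the HA-Tnrc6a inputs in every library of both sets. Inputs labelled Upf1-/- held 179.7, 193 and 208, then 233, 245 and 243 CPM. These overlap with HA-Tnrc6a in libraries 1 to 3 and lie below it in libraries 4 to 6. Dnmt1 rose by 0.19 ± 0.03 (SE, adjusted p = 2.9e-07) in Ago2-/- lysates, and its change in lysates labelled Upf1-/- was -0.11 ± 0.03 (SE, adjusted p = 0.00081). The call for the label Upf1-/- was lost in the fit of all 48 libraries (-0.11, adjusted p = 0.13).

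Uhrf1, which reads hemimethylated DNA for Dnmt1 (chr17:56303337-56323486), was the opposite case in the IPs. Untagged IPs held 275, 262 and 253 CPM in libraries 1, 2 and 3 and 317, 356 and 336 in libraries 4, 5 and 6. HA-Tnrc6a IPs held 174, 182 and 177, then 262, 294 and 278 CPM. In the Ago2-/- IPs it was 140.5, 164 and 165, then 301, 310.4 and 297 CPM, and in those labelled Upf1-/- 159, 177 and 175, then 256, 299 and 307 CPM. In both sets every tagged IP was below every untagged one. The enrichment was -0.37 ± 0.06 (SE, adjusted p = 3.9e-06) in HA-Tnrc6a, -0.43 ± 0.07 (SE, adjusted p = 4.9e-07) in Ago2-/- and -0.32 ± 0.07 (SE, adjusted p = 0.00022) in cells labelled Upf1-/-. The deficit was larger in libraries 1 to 3 in the Ago2-/- comparison, at -0.69 against -0.17 in libraries 4 to 6, a difference of 0.53 ± 0.13 (SE, adjusted p = 0.011). For the label Upf1-/- the call was lost in libraries 4 to 6 alone (-0.19, adjusted p = 0.070). In the lysate Uhrf1 did not pass the test in the 4 comparisons made, with average values from -0.04 to 0.03 and a largest SE of 0.03 (log2). Ago2-/- against cells labelled Upf1-/- differed between the sets there, by 0.17 ± 0.05 (SE, adjusted p = 0.016). In libraries 4 to 6 alone Uhrf1 was higher in Ago2-/- lysates, by 0.11 against the label Upf1-/- (adjusted p = 0.00070) and by 0.09 against HA-Tnrc6a (adjusted p = 0.013).

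Dnmt3a (chr12:3801559-3914443) differed little between tagged and untagged IPs, but its lysate level changed in opposite directions in the sets. HA-Tnrc6a inputs held 99.1, 111 and 112 CPM in libraries 1, 2 and 3, below the Ago2-/- inputs at 125, 128 and 128 and those labelled Upf1-/- at 118, 122 and 128 CPM. In libraries 4, 5 and 6 the order was turned. HA-Tnrc6a inputs held 166, 175 and 168 CPM, above Ago2-/- at 152, 156 and 155 and above the label Upf1-/- at 136, 142 and 141 CPM. No range overlapped with that of HA-Tnrc6a in either set. The log2 change in Ago2-/- lysates was 0.24 in libraries 1 to 3 and -0.14 in libraries 4 to 6, a difference of -0.38 ± 0.06 (SE, adjusted p = 9.3e-06). In lysates labelled Upf1-/- it was 0.18 and -0.26, a difference of -0.45 ± 0.06 (SE, adjusted p = 1.1e-07). Among all genes 5.94% showed such a difference between the sets in the Ago2-/- lysates and 11.6% in those labelled Upf1-/-. The HA-Tnrc6a inputs enter both comparisons. Averaged over the sets, neither change passed the test, at 0.05 ± 0.03 and -0.04 ± 0.03.

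In the IPs, Dnmt3a recovery was -0.17 ± 0.06 (SE, adjusted p = 0.020) relative to untagged in HA-Tnrc6a cells and -0.21 ± 0.06 (SE, adjusted p = 0.0018) in Ago2-/- cells. In cells labelled Upf1-/- it was -0.11 ± 0.07 (SE, adjusted p = 0.16) and did not pass, but it passed under most alternatives. It was -0.17 with RLE size factors (adjusted p = 0.032), -0.17 with DESeq2, -0.19 in the fit of all 48 libraries, -0.37 under library totals, -0.24 in libraries 4 to 6 alone and -0.23 in IPs without inputs. It also passed without replicate 1 (-0.21) or 3 (-0.22). The call in HA-Tnrc6a was lost without replicate 2, 3 or 5 and in libraries 1 to 3 alone (-0.08, adjusted p = 0.56). In those libraries alone the call in Ago2-/- cells was lost too (-0.15, adjusted p = 0.25). RefSeq places the lncRNA genes Dnmt3aos and Gm31623 over part of the span of Dnmt3a. Whether the counting used strand is not given, so reads of such overlapping genes cannot be told apart.

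Dnmt3b (chr2:153649411-153687730), the other de novo enzyme, was slightly lower in Ago2-/- lysates. HA-Tnrc6a inputs held 103, 104 and 111, then 121, 134 and 128 CPM, and Ago2-/- inputs 89.9, 88.9 and 89.3, then 116, 114 and 118 CPM, lower without overlap in each set. The change was -0.19 ± 0.03 (SE, adjusted p = 8.6e-07). In lysates labelled Upf1-/- it was -0.08 ± 0.03 (SE, adjusted p = 0.038), and this call was lost without replicate 1, 2 or 6 and without the HA-Tnrc6a input 3 (log2 -0.06, adjusted p = 0.14), a library that stood apart from inputs 1 and 2 in its counts. The same call was lost under library totals (-0.03, adjusted p = 0.37) and in the fit of all 48 libraries (-0.08, adjusted p = 0.26). Each set alone lost it too (adjusted p = 0.23 in libraries 1 to 3 and 0.065 in libraries 4 to 6). HA-Tnrc6a lysates had slightly more Dnmt3b than untagged ones, at 0.13 ± 0.04 (SE, adjusted p = 0.021). This call was lost without replicate 2, 5 or 6 and without HA-Tnrc6a input 3 (adjusted p = 0.081). It was also lost in the fit of all 48 libraries (0.13, adjusted p = 0.14). With libraries 1 to 3 or 4 to 6 alone it did not pass (adjusted p = 0.19 and 0.061).

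Recovery of Dnmt3b was low in libraries 1 to 3 and near that of untagged cells in libraries 4 to 6. In libraries 1, 2 and 3, IPs of Ago2-/- cells held 53.2, 54.1 and 60.8 CPM against 77.5, 90.5 and 97.6 in untagged cells. In libraries 4, 5 and 6 they held 114, 117 and 108 against 113, 121 and 118 CPM and overlapped. The enrichment was -0.58 and 0.02, a difference of 0.60 ± 0.14 (SE, adjusted p = 0.0083), where 6.15% of all genes passed the test of that difference. Averaged over the sets it was -0.28 ± 0.07 (SE, adjusted p = 0.00092). In HA-Tnrc6a cells it was -0.21 ± 0.08 (SE, adjusted p = 0.018), a call lost without replicate 2 or 6, and without inputs in the fit the IPs alone gave -0.07 (adjusted p = 0.38). That call was also lost in libraries 1 to 3 alone (-0.28, adjusted p = 0.081) and in libraries 4 to 6 alone (-0.11, adjusted p = 0.26).

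Dnmt3l (chr10:78042287-78063622) was the member whose lysate level differed most between tagged and untagged cells, and its start regions are shown for that reason. RefSeq gives it 3 start sites on the plus strand of chromosome 10, and its span overlaps that of the neighbouring gene Aire. Each window holds 250 bases before and 50 after the start (GRCm38.p6), with CpG, the site these enzymes methylate, in capitals:
Dnmt3l start 1, chr10:78042037-78042336: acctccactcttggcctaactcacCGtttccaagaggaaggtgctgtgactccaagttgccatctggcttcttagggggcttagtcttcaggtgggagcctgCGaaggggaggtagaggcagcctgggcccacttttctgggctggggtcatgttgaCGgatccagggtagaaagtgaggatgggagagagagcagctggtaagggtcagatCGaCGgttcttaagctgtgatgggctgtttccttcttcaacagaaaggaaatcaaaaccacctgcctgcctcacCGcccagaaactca
Dnmt3l start 2, chr10:78049592-78049891: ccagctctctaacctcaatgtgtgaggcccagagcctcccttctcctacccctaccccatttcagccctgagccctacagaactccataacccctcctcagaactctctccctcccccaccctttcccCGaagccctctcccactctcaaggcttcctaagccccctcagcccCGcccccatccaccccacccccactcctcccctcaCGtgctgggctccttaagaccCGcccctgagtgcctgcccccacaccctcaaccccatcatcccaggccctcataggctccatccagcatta
Dnmt3l start 3, chr10:78055085-78055384: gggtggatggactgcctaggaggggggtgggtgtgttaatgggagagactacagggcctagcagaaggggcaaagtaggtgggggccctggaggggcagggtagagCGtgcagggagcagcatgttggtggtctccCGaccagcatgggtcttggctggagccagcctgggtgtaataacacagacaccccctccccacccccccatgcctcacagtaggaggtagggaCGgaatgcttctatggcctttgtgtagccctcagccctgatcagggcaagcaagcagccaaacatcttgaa
The windows hold 6, 4 and 3 CpG on the strand shown, which is the same number on the other strand. The median over 32851 RefSeq start windows of this length is 7, and 56.4%, 68.6% and 76.7% of windows hold at least as many. Windows of the other members vary. That of Tet2 holds 57 CpG, a number reached by 0.152% of windows, and those of Dnmt3b and Tet3 hold 30 and 22. Of the Dnmt1 windows, that at chr9:20952574-20952873 holds 33 and that at chr9:20959839-20960138 holds 2, a number reached by 85.9%. Few CpG are thus not particular to Dnmt3l. No methylation was measured in these libraries, and the counts are per gene, so they do not say which start was used.

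In the lysate, untagged inputs held 205, 196 and 195 CPM of Dnmt3l in libraries 1, 2 and 3, and HA-Tnrc6a inputs 289, 299 and 299. In libraries 4, 5 and 6 these were 151, 150.4 and 162 and 184, 188 and 188 CPM, again without overlap. Dnmt3l was 0.42 ± 0.03 (SE, adjusted p = 5.1e-11) higher in HA-Tnrc6a, with 0.58 in libraries 1 to 3 and 0.27 in libraries 4 to 6, a difference of -0.30 ± 0.06 (SE, adjusted p = 0.0052). Of all genes 15.4% passed the test between these lysates and 3.4% the test between the sets, and of the 9 members Dnmt3l and Dnmt3b passed the first and Dnmt3l the second. Without HA-Tnrc6a input 3 the rise of Dnmt3l was 0.42.

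Ago2-/- inputs held 214, 219 and 205 CPM in libraries 1, 2 and 3, below HA-Tnrc6a, and 208, 204 and 208 CPM in libraries 4, 5 and 6, above it. The log2 change was -0.47 and then 0.14, a difference of 0.62 ± 0.05 (SE, adjusted p = 9.3e-13), and the average of -0.17 ± 0.02 describes neither set. Inputs labelled Upf1-/- held 305, 300.4 and 300.0, then 169.7, 181 and 175 CPM, above HA-Tnrc6a in the first set and below it in the second, with an average of -0.03 ± 0.02 (SE, adjusted p = 0.33). Set against those inputs, Ago2-/- was -0.48 and then 0.21. The neighbouring gene Aire is counted apart, with 37223 reads over the 48 libraries.

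Dnmt3l was held back from the Tnrc6a precipitate relative to its lysate level, with an enrichment of -0.47 ± 0.07 (SE, adjusted p = 1.2e-07) in HA-Tnrc6a, -0.70 ± 0.06 (SE, adjusted p = 4.3e-12) in Ago2-/- and -0.27 ± 0.07 (SE, adjusted p = 0.0012) in cells labelled Upf1-/-. For the label Upf1-/- the Dnmt3l call was lost in libraries 4 to 6 alone (-0.18, adjusted p = 0.0815). The levels in the IPs themselves differed less. Untagged IPs held 194, 186 and 182, then 131, 146 and 141 CPM, and HA-Tnrc6a IPs 166, 186 and 205, then 123, 130.4 and 134 CPM, so that the ranges overlap in both sets. With the inputs left out, the IPs of HA-Tnrc6a and untagged cells differed by -0.04 (adjusted p = 0.61), and those labelled Upf1-/- and untagged by 0.05 (adjusted p = 0.45). In the Ago2-/- IPs Dnmt3l held 109.6, 116 and 102, then 129, 120.1 and 132 CPM, below untagged IPs in libraries 1 to 3 and overlapping them in libraries 4 to 6.

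Tet3 (chr6:83362373-83457208), a methylcytosine oxidase best known from the oocyte and early embryo, combined the lowest lysate level with the strongest enrichment over untagged cells. Inputs held 4.01 to 9.99 CPM over all 4 genotypes, and its smallest count in any library was 37. Untagged IPs held 2.79, 5.14 and 5.20 CPM in libraries 1, 2 and 3 and 6.29, 7.32 and 8.67 in libraries 4, 5 and 6. HA-Tnrc6a IPs held 40.9, 36.4 and 34.3, then 37.3, 31.7 and 33.0 CPM. Every tagged IP, at 28.2 CPM or more, was above every untagged IP, the highest of which held 8.67 CPM. In the Ago2-/- IPs Tet3 stood at 35.4, 28.2 and 32.9, then 35.7, 30.1 and 32.7 CPM. In those labelled Upf1-/- it stood at 38.7, 37.8 and 36.2, then 49.4, 39.5 and 44.4 CPM.

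The enrichment of Tet3 was 2.66 ± 0.17 (SE, adjusted p = 3.5e-15) in HA-Tnrc6a, or 6.31-fold, higher than that of 96.4% of all tested genes. It was 2.43 ± 0.15 (SE, adjusted p = 1.8e-16) in Ago2-/- cells and 2.78 ± 0.16 (SE, adjusted p = 2.2e-17) in cells labelled Upf1-/-. In HA-Tnrc6a it was 3.06 in libraries 1 to 3 and 2.25 in libraries 4 to 6, and beads in untagged cells showed -0.27 ± 0.14 (SE, adjusted p = 0.16). Against HA-Tnrc6a the recovery did not pass the test in Ago2-/- cells, at -0.23 ± 0.11 (SE, adjusted p = 0.15), nor in cells labelled Upf1-/-, at 0.11 ± 0.11 (SE, adjusted p = 0.71). Compared with each other, Ago2-/- was lower, at -0.32 ± 0.10 (SE, adjusted p = 0.017). This call was lost without replicate 2, 3 or 4, where the difference was between -0.29 and -0.20. It was also lost under library totals (-0.24, adjusted p = 0.077) and in the fit of all 48 libraries (-0.28, adjusted p = 0.12). Libraries 1 to 3 alone lost it too (-0.18, adjusted p = 0.55). Lysate levels did not pass the test in any of the 4 lysate comparisons made. RefSeq places the lncRNA gene B230319C09Rik and the microRNA gene Mir6374 over part of the span of Tet3.

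Tet2 (chr3:133463677-133545136) had the largest rise in recovery among the 9 genes in Ago2-/- cells. Untagged IPs held 113, 152 and 147 CPM in libraries 1, 2 and 3 and 229, 238 and 242 in libraries 4, 5 and 6. HA-Tnrc6a IPs held 269, 254 and 243, then 309, 317 and 299.7 CPM, and Ago2-/- IPs 382, 341 and 398, then 507, 467 and 471 CPM. IPs labelled Upf1-/- held 181, 162 and 163, then 254, 235 and 255 CPM. In both sets the Ago2-/- IPs were the highest and those of HA-Tnrc6a the next, without overlap. Those labelled Upf1-/- lay above untagged in libraries 1 to 3 and overlapped with untagged in libraries 4 to 6.

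Recovery of Tet2 rose by 0.52 ± 0.07 (SE, adjusted p = 2.1e-07) in Ago2-/- cells against HA-Tnrc6a, with 0.53 in libraries 1 to 3 and 0.51 in libraries 4 to 6. The call was kept under each of the alternative settings, and the value is higher than that of 93.5% of all genes. In cells labelled Upf1-/- it was -0.06 ± 0.07 (SE, adjusted p = 0.73), and the difference between the knockouts was 0.60 ± 0.07 (SE, adjusted p = 5.5e-09). The enrichment over untagged was 0.65 in HA-Tnrc6a, 1.17 in Ago2-/- and 0.60 in cells labelled Upf1-/-, with a largest adjusted p of 1.6e-08. The log2 IP over input in untagged cells was -0.39 ± 0.06 (SE, adjusted p = 2.0e-05).

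Lysate levels of Tet2 fell in the cells labelled Upf1-/-. HA-Tnrc6a inputs held 199, 194 and 202 CPM, then 289, 286 and 260.5, and inputs labelled Upf1-/- 148, 139 and 149, then 242, 219 and 245 CPM, lower without overlap in each set. The change was -0.34 ± 0.03 (SE, adjusted p = 3.2e-13), larger in libraries 1 to 3 (-0.46) than in libraries 4 to 6 (-0.23), a difference of 0.23 ± 0.06 (SE, adjusted p = 0.0048). Ago2-/- inputs held 198, 203 and 203, then 317, 313 and 282 CPM and overlapped with HA-Tnrc6a. Their change of 0.07 ± 0.03 (SE, adjusted p = 0.040) was lost when any of replicates 1 to 5 was left out. Without inputs in the fit, the IPs labelled Upf1-/- differed from HA-Tnrc6a by -0.44 (adjusted p = 4.4e-06).

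Tet1 (chr10:62804570-62887469), the main Tet enzyme of embryonic stem cells together with Tet2, was held by the beads where no tag was present. In untagged cells the inputs held 59.0, 79.6 and 74.4 CPM in libraries 1, 2 and 3, and the IPs 538, 812 and 839 CPM. In libraries 4, 5 and 6 the inputs held 148, 162 and 160.0 and the IPs 339, 234 and 333 CPM. Untagged IPs exceeded their inputs in all 6 libraries, and by far more in libraries 1 to 3. The log2 IP over input was 2.14 ± 0.14 (SE, adjusted p = 1.1e-06), higher than that of 99.7% of all genes, with 3.36 in libraries 1 to 3 and 0.93 in libraries 4 to 6, a difference of -2.42 ± 0.27 (SE, adjusted p = 0.0011). In this comparison 35.7% of all genes passed the test and 2.86% the test of a difference between the sets. Of the 9 members, Tet1 and Dnmt1 were higher and Tet2 and Dnmt3l lower in untagged IPs than in inputs, the call of Dnmt3l being lost without replicate 2, 3, 4 or 6. Tet1 and Tdg differed between the sets.

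The enrichment of Tet1 in HA-Tnrc6a did not pass the test, at -0.04 ± 0.20 (SE, adjusted p = 0.88). The HA-Tnrc6a IPs held 744, 623 and 458, then 243, 355 and 346 CPM, overlapping with untagged IPs in both sets. In the Ago2-/- IPs it stood at 208, 272 and 248, then 308, 360.0 and 279 CPM, and in those labelled Upf1-/- at 202, 217 and 224, then 275, 271 and 300.0 CPM. In libraries 1 to 3 both lay below all untagged and all HA-Tnrc6a IPs, and in libraries 4 to 6 all 4 genotypes overlapped. The enrichment was -1.63 and then 0.01 in Ago2-/- (difference 1.64 ± 0.33 (SE, adjusted p = 0.0068)), and -1.88 and then -0.20 in cells labelled Upf1-/- (difference 1.67 ± 0.30 (SE, adjusted p = 0.0061)). In the latter comparison 1.68% of all genes differed between the sets.

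Against HA-Tnrc6a, Tet1 recovery was -0.78 ± 0.16 (SE, adjusted p = 0.0014) in Ago2-/- cells and -1.01 ± 0.15 (SE, adjusted p = 0.00045) in cells labelled Upf1-/-. Both differences were larger in libraries 1 to 3. The values were -1.36 and -1.62 there, and -0.20 and -0.41 in libraries 4 to 6. With libraries 4 to 6 alone neither passed (adjusted p = 0.63 and 0.37). The difference between the sets was not called in either (adjusted p = 0.25 and 0.41). In the lysate Tet1 was 0.24 ± 0.07 (SE, adjusted p = 0.016) higher in cells labelled Upf1-/-, a call lost without replicate 3 or 6. It was also lost in the fit of all 48 libraries (0.24, adjusted p = 0.094) and in libraries 1 to 3 alone (0.19, adjusted p = 0.067). The difference in Ago2-/- lysates was 0.11 ± 0.05 (SE, adjusted p = 0.066). That difference passed in libraries 4 to 6 alone (0.20, adjusted p = 0.00029) and under DESeq2 (0.12, adjusted p = 0.033). It also passed with a replicate block and without replicate 1, 2 or 5. RefSeq places the lncRNA gene Gm51805 over part of the span of Tet1.

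Tdg (chr10:82629814-82650799), the glycosylase that acts after the Tet enzymes, has near copies in the table: Tdg-ps, annotated as its pseudogene, and Gm9855, named Tdg-ps2 in RefSeq. Tdg had 68724 reads over the 48 libraries, Tdg-ps 18117 and Gm9855 35056. How reads that fit several copies were counted is not stated, so the values of Tdg are uncertain. Untagged IPs held 55.0, 63.2 and 66.2 CPM in libraries 1, 2 and 3 and 71.4, 70.6 and 76.5 in libraries 4, 5 and 6. HA-Tnrc6a IPs held 50.0, 56.6 and 53.9, then 60.7, 54.0 and 53.4 CPM, and Ago2-/- IPs 63.1, 64.8 and 65.5, then 56.1, 56.1 and 55.2 CPM. In libraries 1 to 3 the Ago2-/- IPs were above all HA-Tnrc6a IPs, and in libraries 4 to 6 these overlapped.

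Averaged over the sets, lysate levels of Tdg were lower in both knockouts. HA-Tnrc6a inputs held 58.4, 59.3 and 63.1, then 62.2, 57.7 and 57.2 CPM, Ago2-/- inputs 58.2, 51.1 and 56.4, then 51.3, 46.8 and 53.3 CPM, and those labelled Upf1-/- 57.8, 58.2 and 59.3, then 49.2, 51.6 and 51.1 CPM. In libraries 4 to 6 both knockouts lay below HA-Tnrc6a, and in libraries 1 to 3 the inputs labelled Upf1-/- overlapped with it and the Ago2-/- inputs lay below it. The changes were -0.18 ± 0.04 (SE, adjusted p = 0.00021) and -0.13 ± 0.03 (SE, adjusted p = 0.00061). With libraries 1 to 3 alone neither passed, at -0.13 (adjusted p = 0.13) for Ago2-/- and -0.05 (adjusted p = 0.38) for the label Upf1-/-. Recovery rose by 0.30 ± 0.07 (SE, adjusted p = 0.0011) in Ago2-/- cells, a call lost in libraries 4 to 6 alone (0.23, adjusted p = 0.068), and was 0.06 ± 0.06 (SE, adjusted p = 0.68) in cells labelled Upf1-/-. The enrichment of Tdg over untagged turned with the set, and untagged beads showed a log2 IP over input of -0.18 in libraries 1 to 3 and 0.35 in libraries 4 to 6 (difference 0.53 ± 0.11 (SE, adjusted p = 0.012)). In Ago2-/- cells the enrichment was 0.40 and then -0.18 (difference -0.58 ± 0.15 (SE, adjusted p = 0.014)), and in cells labelled Upf1-/- 0.18 and then -0.44 (difference -0.62 ± 0.14 (SE, adjusted p = 0.016)). In HA-Tnrc6a the average was -0.20 ± 0.08 (SE, adjusted p = 0.023), a call lost without replicate 2, 3 or 6, and libraries 1 to 3 alone gave 0.08.

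Counted over the 9 genes, recovery against HA-Tnrc6a passed the test for 4 in Ago2-/- cells, where 21.3% of all genes passed: Tet2 and Tdg higher, Tet1 and Dnmt3l lower, the last at -0.23 ± 0.07 (SE, adjusted p = 0.010) and lost without replicate 5 or 6. That Dnmt3l call was also lost in libraries 1 to 3 alone (-0.31, adjusted p = 0.095) and in libraries 4 to 6 alone (-0.16, adjusted p = 0.15). In cells labelled Upf1-/- Tet1 alone passed, lower, where 4.49% of all genes passed. These 2 comparisons share the HA-Tnrc6a libraries. Between the knockouts 6 passed, where 24.4% of all genes did: Tet2, Tdg and Tet1 were higher in Ago2-/- (0.60, 0.26 and 0.25), and Dnmt3l, Tet3 and Dnmt1 lower (-0.40, -0.32 and -0.31). The calls of Tet1, at an adjusted p of 0.049, and of Dnmt1, at 0.047, lay at the threshold and were each lost without some single replicate. For Dnmt1 the IPs alone gave 0.01. The plot of knockout changes shows Tet2 as the largest rise in recovery and Tet1 as the largest fall.

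**Figure D3:**
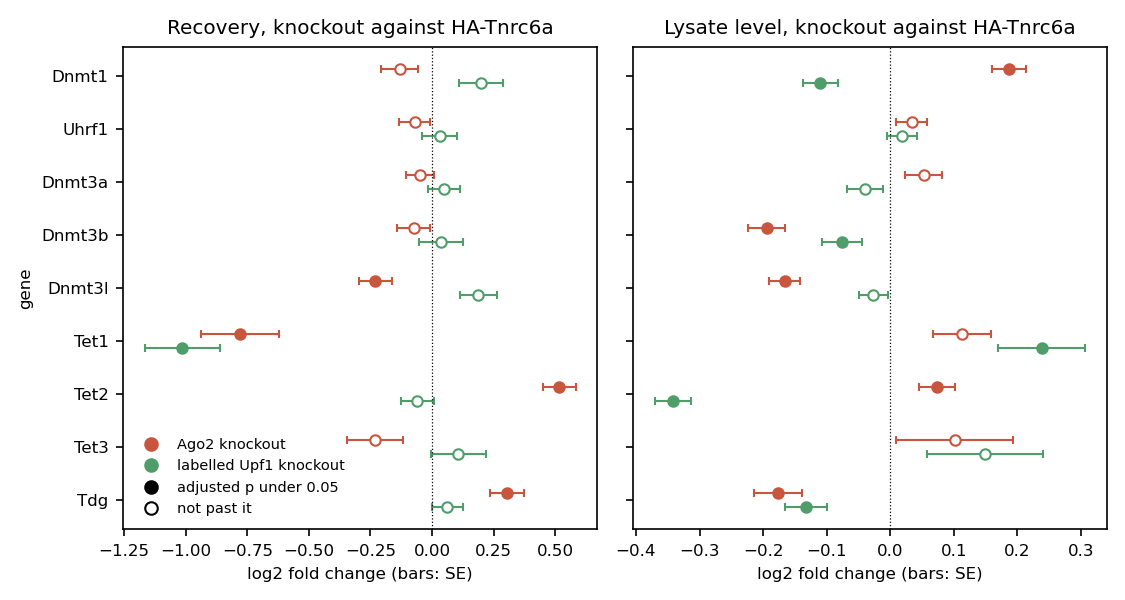
Log2 fold change of the 9 mRNAs in each knockout against HA-Tnrc6a, for recovery (left) and for the lysate level (right), with standard errors. Filled points passed an adjusted p of 0.05. Tet2 recovery lies at 0.52 in Ago2-/- cells, and its lysate level at -0.34 in cells labelled Upf1-/-.

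In the lysates 5 of the 9 genes passed the test in Ago2-/- against HA-Tnrc6a (2 higher, 3 lower), where 30.9% of all genes passed, and 5 in cells labelled Upf1-/- (1 higher, 4 lower), where 58.6% passed. Between the knockouts 5 passed (3 higher and 2 lower in Ago2-/-), where 62.3% of all genes passed. There the largest were Tet2 at 0.42 ± 0.03 (SE, adjusted p = 2.2e-16) and Dnmt1 at 0.30 ± 0.03 (SE, adjusted p = 2.4e-10). The sets differed for Dnmt3l and Uhrf1 in this comparison, where 13.1% of all genes differed between them. Apart from Tet2 in cells labelled Upf1-/-, no average lysate change against HA-Tnrc6a among the 9 exceeded 0.24 in size on the log2 scale. The plot of the sets against each other shows which changes turned.

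**Figure D4:**
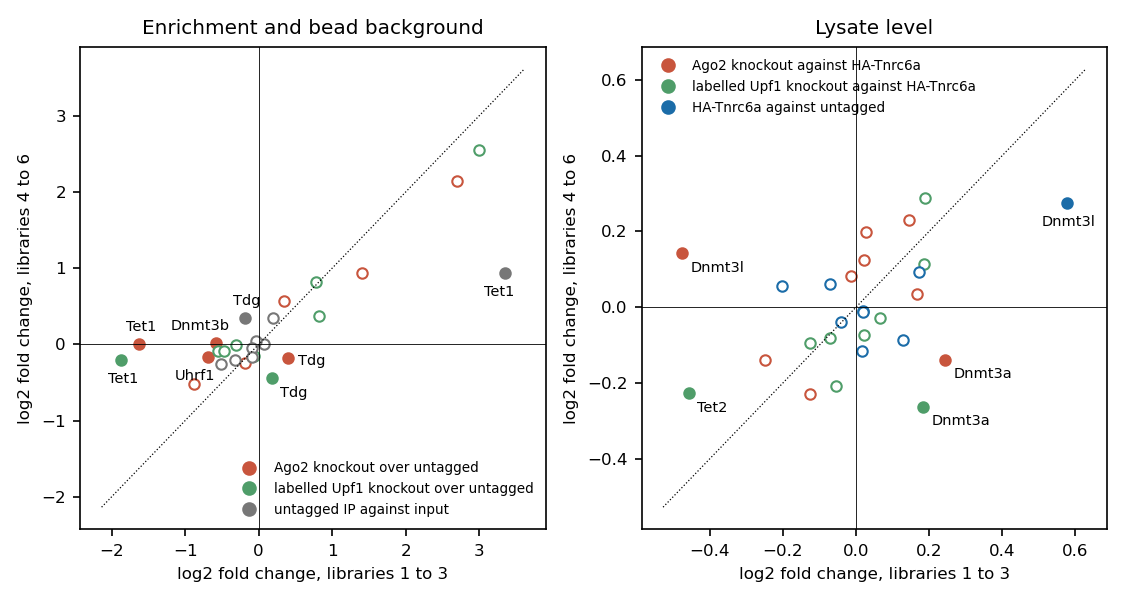
Log2 fold change of the 9 mRNAs in libraries 1 to 3 (horizontal) and libraries 4 to 6 (vertical), for enrichment and bead background (left) and lysate levels (right). Filled, named points differed between the sets at an adjusted p under 0.05, and the dotted line marks equal values. Untagged Tet1 lies at 3.36 and 0.93, and the Dnmt3a and Dnmt3l lysate changes against HA-Tnrc6a in Ago2-/- cells lie in opposite quadrants.

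Related genes were described from 5 lists, whose counts in the HA-Tnrc6a enrichment are to be read against the 62% of all genes called there. Of 8 genes listed as methyl-CpG readers, most of which bind methylated DNA, 6 were enriched in HA-Tnrc6a, 1 was lower and 1 did not pass, with a median of 1.76 (log2) beside -0.10 over all genes and -0.17 over the 9 members. Zbtb4, a zinc finger reader, reached 4.80 ± 0.23 (SE, adjusted p = 5.6e-19) and Mbd2 2.22 ± 0.11 (SE, adjusted p = 2.7e-18). Zbtb38 and Mbd1 reached 1.82 and 1.70, and Mbd3, which in mammals does not bind methylated CpG selectively, was the lower one at -0.49. Among 12 partners and regulators of de novo methylation 3 were higher and 5 lower (median -0.05). Rbl2, a pocket protein known as a microRNA-repressed silencer of the Dnmt3 genes in stem cells, had the highest value of any list at 5.08 ± 0.13 (SE, adjusted p = 4.9e-24). Of 7 maintenance partners 2 were higher and 5 lower (median -0.35). Dppa3, a maternal factor that binds Uhrf1, was -0.93 ± 0.34 (SE, adjusted p = 0.018). Its log2 IP over input in untagged cells, which the enrichment subtracts, was 0.86 ± 0.25 (SE, adjusted p = 0.0088).

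Of 12 measured demethylation and base excision repair genes 1 was higher and 6 were lower in HA-Tnrc6a IPs, a share called near the 62% of all genes (median -0.36), with Polb, the repair polymerase, at -0.88 ± 0.10 (SE, adjusted p = 1.7e-09) and the glycosylase Neil2 at -0.79 ± 0.14 (SE, adjusted p = 6.2e-06). Of 7 genes for the methyl donor and Tet cofactor 3 were higher and 3 lower (median -0.08). In Ago2-/- cells recovery fell for the reader genes Zbtb4 (adjusted p = 0.00042) and Zbtb38 (-0.85) and for Cdca7, a partner of the remodeller Hells (-1.08 ± 0.07 (SE, adjusted p = 4.4e-14)). It rose for Mat2a, which makes S-adenosylmethionine (0.77 ± 0.07 (SE, adjusted p = 6.6e-10)), Mbd1 (0.37) and Mat2b (0.35). The medians of the 5 lists there ran from -0.08 for the readers to 0.11 for the de novo partners, beside -0.04 over all genes. In cells labelled Upf1-/- recovery passed for 3 genes of the lists, where 4.49% of all genes passed: Mat2a (0.31), Morc3 (0.22) and Zfp445 (-0.28). That count is near the share over all genes.

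**Figure D5:**
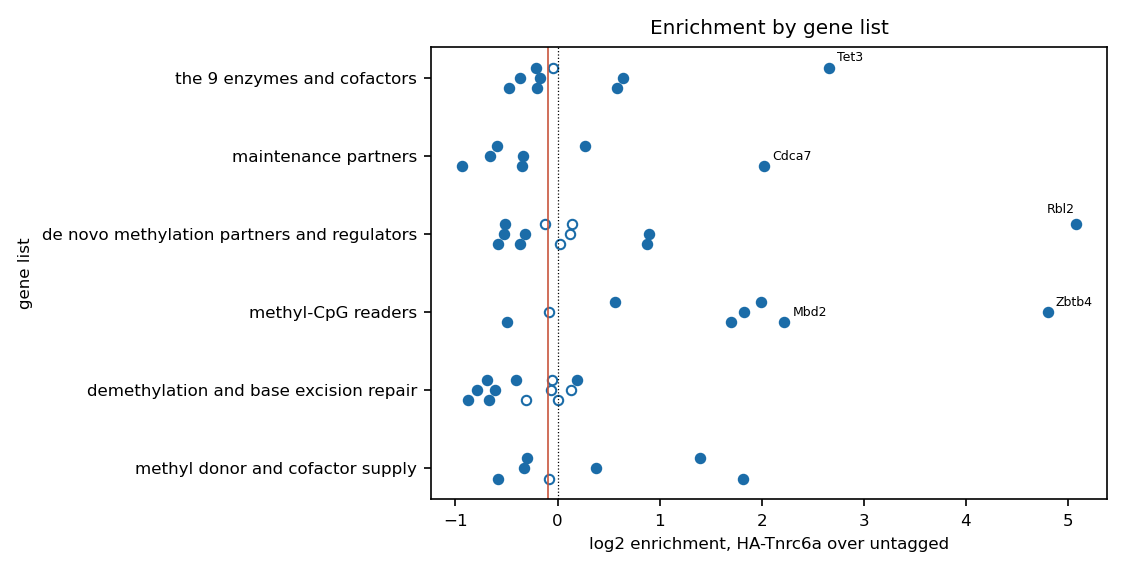
Log2 enrichment in HA-Tnrc6a over untagged cells for the 9 members and the 5 lists of related genes. Each point is 1 gene, filled where the adjusted p was under 0.05, names are given above 2, and the line marks the median of all genes, -0.10. The readers lie mostly to the right of the line and the repair genes mostly to the left.

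In the lysates labelled Upf1-/- 5 of 8 readers were higher and 2 lower, where 58.6% of all genes were called (median 0.39, all genes -0.02). Idh2, of the cofactor supply, rose by 0.58. Lower there were Cdca7l (-0.37), Trim28, a corepressor that guards imprints (-0.37), and Mat2a (-0.29). In Ago2-/- lysates Zbtb38 (0.56), Prdm14, which represses the Dnmt3 genes in naive stem cells (0.35), and Mbd2 (0.29) rose. The repair genes Smug1 (-0.49), Neil2 (-0.31) and Polb (-0.23) fell. Of 12 repair genes 2 rose and 4 fell there, where 30.9% of all genes were called (median -0.09, all genes -0.01).

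Across the 16 combinations of genotype, fraction and set, centred within each set, the members fell into different patterns. These correlations are descriptions over points that share libraries and depth. Dnmt1 and Tet3 ran together (Pearson r 0.91) and both ran against Uhrf1 (-0.74 and -0.90). Dnmt3b ran with Uhrf1 (0.85) and Dnmt3l (0.84), while Tet1 and Tet2 were near unrelated (0.12). Of 10840 genes with a mean log2 CPM of at least 3, the 2 most like Tet3 were Rab5b (0.998) and Naa40 (0.997), and those most like Tet1 were Phf20 (0.994) and Kmt2b (0.992). For Tet2 they were Zfp748 (0.948) and Zfp84 (0.946), for Dnmt1 Ddx52 (0.986) and Nup88 (0.983), and for Uhrf1 Xab2 (0.985) and Usp5 (0.982). For Dnmt3a they were Rasgrp2 (0.887) and Cd276 (0.861), for Dnmt3b Dnah14 (0.941) and Abcc1 (0.933), and for Dnmt3l Rpl10l (0.933) and Nap1l4 (0.929). Tdg was closest to its own near copy Gm9855 (0.927) and to Dr1 (0.855).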

How the data were processed

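RNA of lysates and anti-HA precipitates was measured in 48 libraries. The deposited table holds raw counts per gene as the authors made them, and gene lengths. The submitters' processing notes name STAR 2.7.3a, bcl2fastq 2.20 and mouse build mm10 (GRCm38), without roles. The counting tool, its strand setting and its treatment of reads that fit several places are not given in the sources used here. The 48 columns headed rpkm were not used.

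Counts of 20171 genes were fitted with edgeR 4.0.16 (R 4.3.3): TMM scaling, filterByExpr at its minimum count of 10, a robust quasi-likelihood fit with 1 coefficient per group and set, and Benjamini-Hochberg adjustment over all genes tested. Each comparison was formed within libraries 1 to 3 and 4 to 6 and averaged with equal weight, and the difference between the sets was tested. CPM values use TMM factors over all 48 libraries, and RPKM divides them by the deposited length. SE is the log2 fold change over the square root of F. Depth per library was 11471544 to 73845953 counts. The table itself named 16427 genes, the reference names gave 3725 more symbols, and 19 stayed unnamed. Every gene reached at least 11 counts in some library.

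The named genes are the 9 members, Tnrc6a, Ago2 and Upf1, up to 3 genes per direction from 5 pathway lists, and the 2 genes most like each member. The endoderm markers, Aire, and Zbtb38, Mbd1 and Mbd3 in the HA-Tnrc6a enrichment were named after their values were seen. Some genes that the rule would name are not reported here. Members and lists were chosen with earlier results of these data known. The fit was tested on simulated counts with known changes. Alternatives were RLE size factors, library totals, no count filter, DESeq2 1.42.0, 1 fit of all libraries, each set alone, IPs without inputs, a replicate block and leaving out each replicate. Leaving out the HA-Tnrc6a input 3 was added after seeing the data. Positions are from RefSeq, GRCm38.p6.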

Additional observations from a re-analysis of the deposited data

Results flagged for a closer look

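For 15 results the change differed between libraries 1 to 3 and libraries 4 to 6 in edgeR's test of that difference, at an adjusted p under 0.05. Values are log2 changes in libraries 4 to 6 minus those in libraries 1 to 3. The sets also differ in depth, and the part of depth in these differences was not tested.

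For Tet1 the difference was -2.42 in the bead background of untagged cells, 1.64 in the enrichment in Ago2-/- cells and 1.67 in that in cells labelled Upf1-/-. The last 2 share the untagged libraries with the first. For Tdg it was 0.53 in the bead background, -0.58 in the enrichment in Ago2-/- cells and -0.62 in cells labelled Upf1-/-. Dnmt3b and Uhrf1 differed in the enrichment in Ago2-/- cells, by 0.60 and 0.53.

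In the lysates Dnmt3l differed by 0.62 in Ago2-/- against HA-Tnrc6a, by 0.70 in Ago2-/- against cells labelled Upf1-/-, and by -0.30 in HA-Tnrc6a against untagged. Dnmt3a differed by -0.38 in Ago2-/- and by -0.45 in cells labelled Upf1-/-, both against HA-Tnrc6a. Tet2 differed by 0.23 in cells labelled Upf1-/- against HA-Tnrc6a, and Uhrf1 by 0.17 in Ago2-/- against cells labelled Upf1-/-. In 72 groups of 6 values, each pooling both sets, no library passed Dixon's criterion for 6 values, which chance passes in about 1 in 20 groups. A gap between the sets widens the range, so this criterion can miss a library that stands apart within its own set.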

How the results depend on the processing

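Of 1494 recomputed member values over 16 alternatives, 1336 kept their side of the threshold and did not turn as a called value, 91 lost the call, 57 gained it and 10 turned. Of the 1336, 83 changed sign where neither value was called. The cause of the changes was not tested. Those that turned were, in libraries 4 to 6 alone, Dnmt3a (-0.13) and Dnmt3l (0.15) in Ago2-/- lysates, Dnmt3l in Ago2-/- lysates against those labelled Upf1-/- (0.21) and Tdg enrichment in Ago2-/- cells (-0.25). In libraries 1 to 3 alone Dnmt3a in lysates labelled Upf1-/- (0.18) and Tdg enrichment in HA-Tnrc6a (0.081) turned. In IPs without inputs Dnmt1 between the knockouts (0.0070) and Dnmt3l in cells labelled Upf1-/- (0.053) turned, and under library totals the bead background of Dnmt3a (-0.17) and Uhrf1 (-0.13).

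Counts of members called moved as follows. Libraries 1 to 3 alone gave 5 for HA-Tnrc6a enrichment (8 in the main analysis), 2 for recovery between the knockouts (6), 3 for lysates labelled Upf1-/- (5), 1 for HA-Tnrc6a against untagged lysates (2) and 2 for bead background (4). Libraries 4 to 6 alone gave 1 for Ago2-/- recovery (4) and 0 for that labelled Upf1-/- (1), which IPs without inputs raised to 3. A fit of all 48 libraries gave 2 for lysates labelled Upf1-/- (5), 3 between the knockout lysates (5) and 1 for HA-Tnrc6a against untagged (2). Library totals gave 7 for bead background (4).

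Counts over all genes moved too. Libraries 1 to 3 alone gave 1623 for Ago2-/- recovery (4267), 162 for that labelled Upf1-/- (896), 2667 between the knockouts (4878), 3382 for Ago2-/- lysates (6065), 652 for HA-Tnrc6a against untagged lysates (2990) and 1972 for bead background (6892). Libraries 4 to 6 alone gave 384 for recovery labelled Upf1-/-. IPs without inputs gave 7482, 8805 and 10794 for the 3 recovery comparisons. The fit of all 48 gave 3902 for Ago2-/- lysates and 1937 for HA-Tnrc6a against untagged. Library totals moved the split of higher to lower calls from 6338 and 6326 to 4975 and 8694 (enrichment labelled Upf1-/-), from 583 and 313 to 224 and 778 (recovery labelled Upf1-/-), from 2174 and 2704 to 3244 and 1870 (between the knockouts) and from 3465 and 3427 to 1997 and 7559 (bead background). For recovery labelled Upf1-/- RLE size factors gave 352 and 315, and leaving out HA-Tnrc6a input 3 gave 202 and 392.

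Leaving out 1 replicate at a time gave 1896 to 3739 genes for HA-Tnrc6a against untagged lysates (least without replicate 5) and 341 to 901 for recovery labelled Upf1-/- (least without replicate 5, and 594 without HA-Tnrc6a input 3). Members called ran from 5 to 8 for HA-Tnrc6a enrichment and from 3 to 6 between the knockouts (least without replicate 2 in both), from 3 to 5 for lysates labelled Upf1-/- (least without replicate 6) and from 1 to 2 for HA-Tnrc6a against untagged lysates (1 without replicate 2, 5 or 6, or without HA-Tnrc6a input 3).

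The header numbers do not name single samples, so whether same-numbered IPs and inputs share a lysate is not known. The main fit did not pair them. Deviations of IPs and same-numbered inputs had a mean r of 0.104, from -0.0609 to 0.509, with 10 of 24 above 0.1. A replicate block called 7 members in place of 6 for enrichment labelled Upf1-/-, 6 in place of 5 for Ago2-/- lysates and 6 in place of 5 between the knockout lysates. It added Dnmt3b (-0.17) and Tet1 (0.12 and -0.12), and changed no other member's call. Over all genes it called 8017 in place of 6892 for bead background and moved no count by over 1.5 times.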
